A study of Oryctolagus cuniculus with 6 samples.

Results

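In a series of rabbit retina RNA-seq libraries, 65 of 28788 genes were at least 20 times higher in 1 normal retina library than in either of the other normal libraries, and most of their reads came from genes of the eye lens. The members were chosen by their normalised counts (CPM, the count of a gene divided by the total count of its library and multiplied by 1000000). A member had at least 1 CPM in normal replicate 2 and at least 20 times the CPM of both normal replicate 1 and normal replicate 3, with a CPM of 0 set to 0.03. The levels in the 3 normal libraries therefore selected the members, and every value below that sets normal replicate 2 against normal replicates 1 and 3, or PVR against any of these, is for the members a description without a test.

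The series held 3 libraries of normal retina and 3 libraries of retina from rabbits with proliferative vitreoretinopathy (PVR), a scarring disease in which membranes grow on the retina and pull on it. Adult rabbits of a strain that the sources used here do not name were given PVR by a puncture through the sclera, withdrawal of some vitreous and injection of platelet-rich plasma, and the normal group is labelled only as normal. The time of sampling and the age beyond adult were not given in the sources used here, and no allele or drug was named for either group. The labels do not say whether the libraries of a group came from separate animals, so a p-value measures only the spread between these libraries, which may be technical.

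The lens is built from a single layer of epithelial cells and from fibre cells that elongate, fill with crystallins and lose their nuclei and other organelles. Crystallins make up most of the soluble protein of fibres, a beaded filament of lens-specific intermediate filament proteins supports their shape, and connexins and an aquaporin join their membranes into a shared transport system. The neural retina makes some of these proteins too, mainly αB-crystallin, in small amounts, while the beaded filament proteins are close to exclusive to the lens.

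Between 31904593 and 43035080 reads were counted per library, and normal replicate 2 lay inside this range with 40832922. The retinal marker list (10 genes, with rhodopsin) summed to 36610 CPM in normal replicate 2, to 43717 and 45742 CPM in the other normal libraries, and to 28251 to 37563 CPM in PVR, so each library carried a strong retinal signal. Markers of corneal epithelium (3 of 6 measured) summed to at most 0.976 CPM in any library. Pigment epithelium markers (7 genes) summed to 245 CPM in normal replicate 2 against 191 and 131 CPM in normal replicates 1 and 3 and 84.3 to 115 CPM in PVR. Muscle markers (3 of 5 measured) reached 26.9 CPM in normal replicate 1 but 0.392 CPM in normal replicate 2, and stroma and sclera markers (5 genes) were at 58.7 CPM in normal replicate 2 and 75.3 to 239 CPM in the other libraries. Ciliary body and iris markers (4 of 5 measured) were at 104 CPM in normal replicate 2 and 108 to 174 CPM in the other libraries. Of these, OPTC ranged from 0.784 CPM in normal replicate 2 to 50.7 CPM in PVR replicate 3. Red blood cell markers (4 of 5 measured) were at 19.0 CPM in normal replicate 2 and 7.79 to 22.4 CPM in the other libraries. The part of these tissues in the results was not tested.

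All 4 lens markers, CRYAA, CRYBB2, BFSP1 and LGSN, were members. Of the 65 members, 25 belonged to 7 lists of lens genes and 40 to none, although 2 of the 40 were matched through RefSeq to listed genes, as second gene models of HSPB1 and BFSP2. The HSPB1 model was at 0.924, 38.4 and 1.02 CPM in normal retina and at 5.64, 1.36 and 1.21 CPM in PVR, while the gene listed under that symbol was at 1.10 CPM in normal replicate 2 and no member. The capsule list had 0 members. The lens lists named 72 genes, of which 65 were measured, and the other 7 (5 γ-crystallins, LIM2 and SLC2A3) were not analysed here. The members made up 0.423% of the 15366 genes with at least 1 CPM in normal replicate 2. Together they held 6.35% of the library of normal replicate 2, against 0.0120% in normal replicate 1, 0.0163% in normal replicate 3, and 0.0678%, 0.0640% and 0.0648% in PVR replicates 1, 2 and 3. Genes of the lens lists supplied 83.8% of the members' counts in normal replicate 2 and the crystallin list alone 79.0%. The members were thus lens transcripts by most of their reads, while the lists did not cover most of the genes by number.

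**Figure D1:**
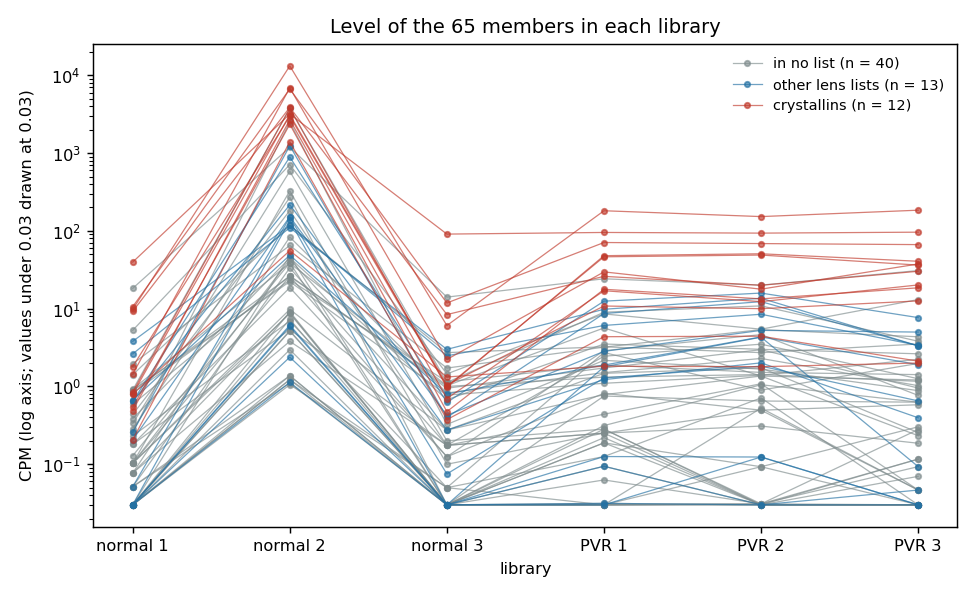
CPM on a log axis (values under 0.03 drawn at 0.03) of each of the 65 members in the 3 normal and 3 PVR libraries, 1 line per gene, coloured by group (crystallins, other lens list genes, members in no list). Every line peaks at normal replicate 2, and in PVR the lines lie between their levels in normal replicate 2 and those in the other normal libraries for 60 of the 65 genes when group means are compared.

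In normal replicate 2, a member stood at a median of 186 times its mean CPM in normal replicates 1 and 3, or 174 times when members with no count in both were set to a floor of 3 counts per library. The lowest ratio was 23.7 with a CPM of 0 set to 0.03, and 17.8 with that floor (IL17B). By the smaller of the 2 ratios, 17 members were over 1000-fold and 37 over 100-fold. Among genes with a symbol, SMCO3 at 20.4, SHBG at 21.5 and GGTA1 at 21.7 were nearest to the limit of 20-fold inside. GPD1 at 19.1, MGARP at 17.6 and RAB17 at 16.5 were nearest outside. SHBG rested on 2, 45 and 1 counts in normal replicates 1, 2 and 3, so its ratio was imprecise. A further 25 genes lay between 10-fold and 20-fold. Among the 65 members, 8 had no count in either normal replicate 1 or 3.

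In PVR the mean level was above that of normal replicates 1 and 3 for 60 members and not above it for 5, a comparison that the rule fixed in part by selecting low values in those normal libraries. All 3 PVR libraries lay below normal replicate 2 for 65 of 65 members. A member's mean PVR level had a median of 1.74% of its level in normal replicate 2, with an interquartile range of 0.762% to 4.99% and a range of 0% to 26.9%. The median was 1.59% in PVR replicate 1, 1.89% in PVR replicate 2 and 1.22% in PVR replicate 3, so each PVR library held a level of this size. Relative to the mean of normal replicates 1 and 3, the median PVR level was 3.51-fold, or 3.69-fold over the 61 members with a fold or a bound. In bulk tissue, fewer cells of a type and less RNA per cell cannot be told apart.

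All 3 PVR libraries were above both normal replicate 1 and normal replicate 3 for 42 of 65 members, and below both for 0. Of all genes with at least 1 CPM in normal replicate 2, 19.9% had every PVR library above and 16.1% every PVR library below. The rule required low values in normal replicates 1 and 3, so nothing is read from the difference between these shares. The lens list members were above in 21 of 25 and the members in no list in 21 of 40. The median PVR level was 8.18 times the mean of normal replicates 1 and 3 for the lens list members and 2.92 times for the others.

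Log2 fold changes between PVR and normal retina were fitted with edgeR over the whole table. With all 6 libraries, 0.69% of 18697 genes were called higher in PVR and 0.316% lower, where a call needed an adjusted p below 0.05 together with a change over 1 on the log2 scale. Of the 45 members tested, edgeR called 0, with 11 at an unadjusted p under 0.05, beside 3963 of all 18697 genes. DESeq2 and limma-voom also called 0, where DESeq2 gave no adjusted p for 43 of the 45. The median fitted log2 fold change was −4.37 beside −0.01 over all genes by edgeR, but −0.48 by limma-voom and −0.28 with the replicate number as a block, so its size depended on the method. Without normal replicate 2, 0.24% of 19198 genes were called higher and 0.0938% lower, and 9 of the 45 members tested were called higher and 0 lower, with a median log2 fold change of 2.37 beside 0.01 over all genes. The rule used these libraries, so nothing is read from these member counts.

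The crystallins, the refractive proteins of the lens, contributed 12 members, which is every measured gene of their list. They took 5.02% of all counts in normal replicate 2, and their summed level in PVR was 1.10%, 0.985% and 1.09% of it in replicates 1 to 3. The α-crystallin CRYAA, a chaperone of the small heat shock family, was at 9.78, 13205 and 6.06 CPM in normal replicates 1 to 3 and at 181, 153 and 184 CPM in PVR, or 1.31% ± 0.133 (SD, n = 3) of normal replicate 2. The PVR libraries were all above normal replicates 1 and 3 and far below normal replicate 2, with no overlap.

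CRYAB, the αB-crystallin that neurons and glia also make, was at 39.6, 3176 and 90.9 CPM in the normal libraries and at 95.4, 93.5 and 96.2 CPM in PVR. Its PVR values lay just above the higher of normal replicates 1 and 3. The PVR mean was 2.99% of normal replicate 2, and 0.958% when the mean of normal replicates 1 and 3 was subtracted from both.

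Among the β-crystallins, CRYBB2 was at 1.80, 2984 and 0.998 CPM in normal retina and at 46.4, 48.9 and 36.3 CPM in PVR, which is 1.47% ± 0.223 (SD, n = 3) of normal replicate 2. CRYBB1 stood at 0.356% of normal replicate 2 in PVR, CRYBA1 at 0.411%, CRYBA4 at 0.615%, CRYBB3 at 0.657% and CRYBA2 at 0.705%. The β-crystallins thus differed up to 4.12-fold in how much of the level in normal replicate 2 was seen in PVR.

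The γ-crystallins did so too. CRYGS, the γS-crystallin of the fibre cortex, was at 0.847, 3763 and 0.973 CPM in normal retina and at 48.0, 50.7 and 40.6 CPM in PVR, or 1.23% ± 0.139 (SD, n = 3) of normal replicate 2. CRYGC was at 0.205, 1396 and 0.374 CPM and at 4.36, 4.42 and 2.11 CPM in PVR, or 0.260% ± 0.0940 (SD, n = 3). CRYGN, at a much lower FPKM of 48.6 in normal replicate 2, was at 0.795, 55.7 and 1.32 CPM and at 1.82, 1.79 and 2.0 CPM in PVR. Its PVR level was 3.36% of normal replicate 2, a higher share than those of CRYGS and CRYGC.

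CRYL1, the enzyme that serves as λ-crystallin in rabbit lens, was at 10.6, 6670 and 11.8 CPM in normal retina and at 70.8, 68.6 and 66.6 CPM in PVR, or 1.03% ± 0.0320 (SD, n = 3) of normal replicate 2. On the FPKM scale, where counts are divided by gene length as well as by depth, the order within the crystallin list in normal replicate 2 was CRYAA at 13244, CRYBA1 at 10567, CRYAB at 5795, CRYGS at 5422 and CRYL1 at 4714. With 1 library at this level, neighbours in this order cannot be separated by their spread.

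**Figure D2:**
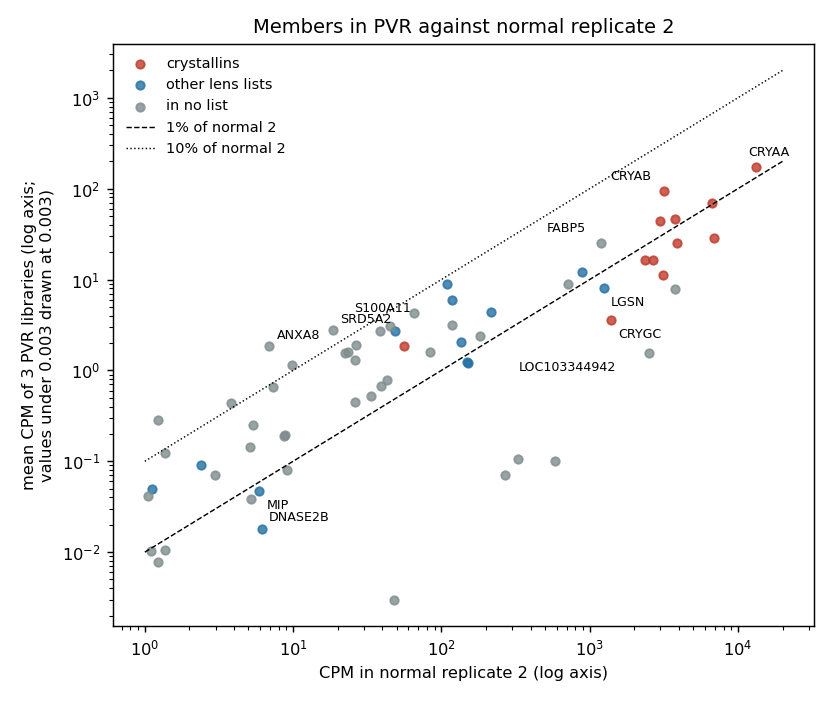
Mean CPM of the 3 PVR libraries (values under 0.003 drawn at 0.003) against CPM in normal replicate 2, both on log axes, for each of the 65 members, with lines at 1% and 10% of normal replicate 2. Crystallins spread around the 1% line, from 0.260% for CRYGC to 3.36% for CRYGN, and ANXA8 at 26.9% lies highest above it.

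The lens cytoskeleton gave 3 members out of 8 measured genes, and each was above normal replicates 1 and 3 in every PVR library. LGSN, lengsin, a lens protein of the glutamine synthetase family, was at 0.257, 1241 and 0.399 CPM in normal retina and at 8.65, 12.3 and 3.32 CPM in PVR, or 0.652% ± 0.364 (SD, n = 3) of normal replicate 2. BFSP1, filensin, was at 0.641, 891 and 0.624 CPM and at 12.5, 15.9 and 7.67 CPM in PVR, or 1.35% ± 0.462. The partner BFSP2, phakinin, was at 0.0513, 149 and 0.0749 CPM and at 1.29, 1.82 and 0.651 CPM in PVR, or 0.842% ± 0.395. All 3 genes ran from PVR replicate 2 through PVR replicate 1 down to PVR replicate 3, and the PVR values lay between those of normal replicate 2 and those of the other normal libraries without overlap. A second BFSP2 gene model was also a member, at 0, 7.30 and 0.0250 CPM in normal retina. In PVR this model was at 0.313, 1.05 and 0.627 CPM, or 9.10% ± 5.07 of normal replicate 2, with PVR replicate 1 the lowest. The shares and orders of both models are uncertain because reads may be split between them.

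The fibre membrane gave 3 members out of 10 measured genes. GJA3, connexin 46, a protein of the fibre gap junctions, was at 0.205, 152 and 0.274 CPM in normal retina and at 1.22, 2.01 and 0.395 CPM in PVR, or 0.794% ± 0.530 (SD, n = 3) of normal replicate 2. Its PVR values lay above normal replicates 1 and 3 without overlap, and PVR replicate 3 was the closest to them. MIP, aquaporin 0, had counts of 0, 241 and 0 in normal retina and 3, 0 and 2 in PVR, and the level in normal replicate 2 was at least 76.7-fold higher than in normal replicates 1 and 3, from a floor of 3 counts per library. At 3.97 FPKM in normal replicate 2, MIP was also low per length next to GJA3 at 49.2 FPKM.

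Of 11 measured transcription factors of lens development, SOX1 and GATA3 were members. SOX1, a regulator of γ-crystallin genes, was at 0, 2.38 and 0 CPM in normal retina and at 0.125, 0.124 and 0.0232 CPM in PVR. GATA3 was at 0.0257, 1.13 and 0 CPM and at 0, 0.124 and 0.0232 CPM in PVR. Both were within a few counts of absent in PVR, and their shares of 3.82% and 4.34% of normal replicate 2 rest on 9 and 5 PVR counts in all. DNASE2B, the nuclease that degrades DNA of maturing fibres, was the single member of the maturation list, at 0, 6.15 and 0.0250 CPM in normal retina and at 0.0313, 0 and 0.0232 CPM in PVR, or 2 counts in all.

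The other lens genes gave 4 members of 9 measured. LCTL, a lactase-like protein needed for the optical sutures of the lens, had counts of 0, 5556 and 0 in normal retina and 57, 139 and 4 in PVR. From the same floor, LCTL was at least 1768-fold higher in normal replicate 2 and at least 26.7-fold higher in the PVR mean than in normal replicates 1 and 3. GRIFIN, a galectin-related lens protein, was at 0.641, 216 and 0.424 CPM and at 2.82, 5.25 and 5.0 CPM in PVR, and LENEP, a protein of the lens epithelium, at 0.667, 48.7 and 0.798 CPM and at 1.88, 4.33 and 1.91 CPM in PVR. PVR replicate 2 was again the highest PVR library for both. BIRC7, livin, an inhibitor of apoptosis, was at 3.80, 118 and 2.47 CPM and at 6.08, 8.47 and 3.37 CPM in PVR, where PVR replicate 3 lay below normal replicate 1.

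**Figure D3:**
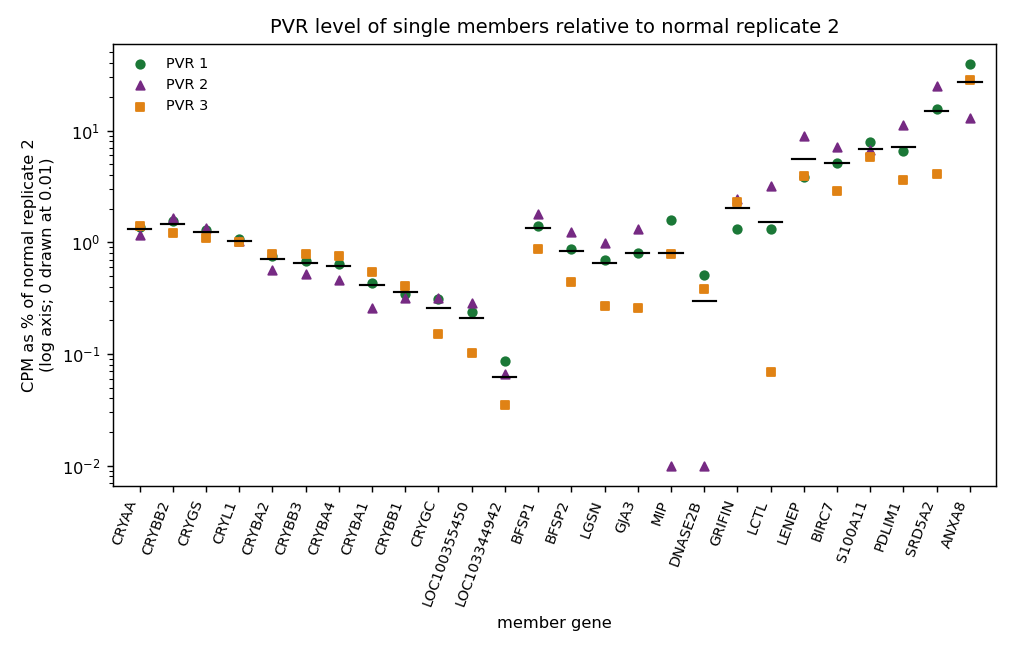
CPM of each PVR library as a percentage of normal replicate 2 (log axis, 0 drawn at 0.01) for single members, with 1 marker per PVR replicate and a bar at their mean. The marker of PVR replicate 3 is lowest for LGSN, BFSP1, BFSP2, GJA3 and LCTL, and highest for CRYAA and CRYBA1.

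The PVR libraries did not rank alike over the members. Of the 36 members with at least 20 counts in every PVR library, 8 of 12 crystallins were highest in PVR replicate 3 and lowest in PVR replicate 2. Of the other 24 members, 14 were highest in PVR replicate 2 and 16 lowest in PVR replicate 3. For comparison, 14906 of all genes had that many counts and at least 1 CPM in normal replicate 2. Of these, 29.5% had the order of those 8 crystallins, 41.6% were highest in PVR replicate 2 and 40.7% lowest in PVR replicate 3. The highest PVR library exceeded the lowest by a median of 1.30-fold over the crystallins, 2.35-fold over the other members and 1.23-fold over all genes. The summed level of the 13 lens list members other than crystallins was 1.5%, 2.22% and 0.840% of normal replicate 2 in PVR replicates 1, 2 and 3, an uneven spread beside the flat crystallin sums. The order of the PVR libraries, which are replicates of a single group, was not tested.

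Among the 40 members in no lens list, 23 carried a symbol and 17 did not, and 12 of the 17 were matched to RefSeq genes, 4 of them with a symbol. Reads without a symbol were concentrated in a run of genes that lie next to each other in RefSeq. In this run, which includes LOC100355450 and LOC103344942, 4 genes were members and 1 more between them was not analysed here. LOC100355450 was at 0.898, 3759 and 1.12 CPM in normal retina and at 9.0, 10.8 and 3.81 CPM in PVR, or 0.210% of normal replicate 2, and LOC103344942 was at 0.257, 2512 and 0.324 CPM and at 2.16, 1.67 and 0.883 CPM in PVR, or 0.0626%. The other 2 stood at 0.0260% and 0.0327%. These 4 shares were below the 0.260% of CRYGC, the lowest in the crystallin list. What the 4 genes encode was not tested, so they may or may not belong with that list. The nearby genes IDH1, PIKFYVE and PLEKHM3 had 2419, 7005 and 3796 counts in normal replicate 2 beside 2672, 7561 and 3735 in normal replicate 1, so they were at close to the same level in both.

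Of the members with a symbol that no list holds, FABP5, which binds fatty acids, had the highest FPKM in normal replicate 2 (1809). It was at 18.2, 1190 and 14.1 CPM in normal retina and at 24.2, 20.1 and 30.9 CPM in PVR, so its PVR values were little above those of normal replicates 1 and 3. CA3, a carbonic anhydrase, was at 5.26, 711 and 1.45 CPM and at 8.56, 5.44 and 13.1 CPM in PVR, and its PVR replicate 2 came close to normal replicate 1. S100A11, a calcium-binding protein, was at 0.385, 44.9 and 0.674 CPM and at 3.51, 3.0 and 2.63 CPM in PVR, a clear gap above normal replicates 1 and 3.

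The members with the highest PVR level relative to normal replicate 2 were chosen by that value. Over 10% of normal replicate 2 was seen for 5 members, of which ANXA8, SRD5A2 and GGTA1 carry a symbol in the deposited data. LOC127488791, matched through RefSeq to PHF10, was also among the 5, at 11.8% ± 8.06 (SD, n = 3). ANXA8, an annexin, was at 0.231, 6.93 and 0.0499 CPM in normal retina and at 2.73, 0.896 and 1.98 CPM in PVR, or 26.9% ± 13.3 (SD, n = 3). SRD5A2, a steroid 5α-reductase, was at 0.180, 18.6 and 0.125 CPM and at 2.88, 4.64 and 0.767 CPM in PVR, or 14.8% ± 10.4. GGTA1 was at 11.6% ± 4.51 on 49 PVR counts in all. The PVR libraries of ANXA8 and SRD5A2 were above normal replicates 1 and 3 without overlap, with wide spread among themselves. WNT7A, GJE1 and CLIC5 are named after their values were seen. WNT7A, a signalling ligand, was at 0.128, 38.9 and 0 CPM in normal retina and 0.752, 0.649 and 0.627 CPM in PVR. CLIC5, an ion channel protein, was at 0.436, 182 and 0.175 CPM and 2.44, 3.49 and 1.25 CPM, and GJE1, a connexin, was at 0, 9.13 and 0 CPM and 0.219, 0 and 0.0232 CPM.

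At the other end, 5 members stood below 0.1% of normal replicate 2 in PVR. A member without a symbol had 1952 counts in normal replicate 2 and 0 in the other 5 libraries, and 0 counts in PVR allow up to 0.0719% of its level in normal replicate 2. Across the 65 members, the log2 CPM of the PVR mean followed that of normal replicate 2 with Pearson's r = 0.82 (Spearman's rho = 0.81, n = 65 genes) and that of the mean of normal replicates 1 and 3 with r = 0.87 (rho = 0.86). These correlations are across genes, which are not independent replicates, the rule used these libraries, and the points share abundance and length, so they are given as a description.

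Of the 40 measured lens list genes that were not members, 26 were under 2-fold, 8 between 2-fold and 5-fold and 6 over 5-fold in normal replicate 2 relative to the mean of normal replicates 1 and 3. Their median ratio was 1.28, beside 0.964 over all genes at 1 CPM. PITX3, a transcription factor, was at 20.6-fold, but missed the rule because its ratio to normal replicate 3 was under 20. HSF4, a heat shock factor that drives fibre genes, was at 1.41, 17.7 and 0.998 CPM in normal retina and 0.752, 1.76 and 1.32 CPM in PVR, so it was high in normal replicate 2 alone. The RNA-binding genes RBM24 and CAPRIN2 were 12.7-fold and 9.10-fold higher in normal replicate 2, the collagen gene COL4A1 7.11-fold and the actin-capping TMOD1 5.10-fold. By contrast CDH2, PAX6, SIX3, EFNA5 and TFAP2A, which retina also uses, ranged from 0.820-fold to 1.06-fold. Other non-members abundant in normal replicates 1 and 3 were not all this flat. SPTB was at 0.883-fold and CADM1 at 0.933-fold, but VIM was at 1.44-fold, PROX1 at 1.53-fold and TDRD7 at 2.38-fold.

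**Figure D4:**
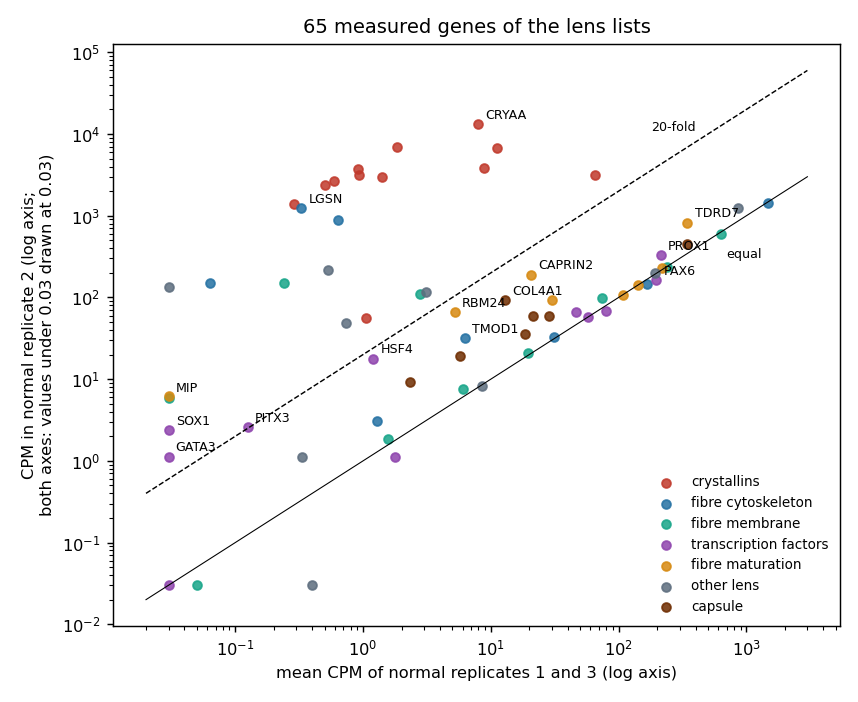
CPM in normal replicate 2 against the mean CPM of normal replicates 1 and 3, on log axes, for the 65 measured genes of the 7 lens lists, coloured by list, with lines at equal levels and at 20-fold (values under 0.03 drawn at 0.03). The crystallins, BFSP1, BFSP2, LGSN and LCTL stand above the 20-fold line, and 26 genes lie less than 2-fold above the line of equal levels or below it.

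These genes were tested between PVR and normal replicates 1 and 3. Of the 37 lens list non-members tested, edgeR called 0, limma-voom called 0, and DESeq2 called 2, COL4A5 and COL4A6. By edgeR, 11 of the 37 had an unadjusted p under 0.05, beside 3072 of all 19198 genes. By adjusted p alone, in either direction, DESeq2 put 7 of the 37 under 0.05, and no share of all genes is given for that criterion. With the limit on the change added, DESeq2 called 2.54% of all genes higher, against 0.24% by edgeR. The 2 calls among the 37 are the count to set beside that share. COL4A6, a collagen of the lens capsule, had a log2 fold change of 1.97 ± 0.47 (SE) and an edgeR adjusted p of 0.167 (0.00121 to 0.580 over the alternatives), at 1.10 and 3.52 CPM in normal replicates 1 and 3 and 9.84, 9.18 and 8.92 CPM in PVR. COL4A5 was at 1.19 ± 0.36 (adjusted p = 0.214 by edgeR, 0.0280 to 0.611 over the alternatives), CAPRIN2 at 0.72 ± 0.15 (adjusted p = 0.134 by edgeR, 0.00165 to 0.580 over the alternatives) and COL4A1 at 2.22 ± 0.84 (adjusted p = 0.281 by edgeR, 0.107 to 0.628 over the alternatives). COL4A1 was at 5.70, 92.3 and 20.3 CPM in normal retina and at 60.5, 110 and 17 CPM in PVR, where PVR replicate 3 lay below normal replicate 3. Other genes were lower in PVR. Among them, BNIP3L was at −0.44 ± 0.12 (adjusted p = 0.198 by edgeR, 0.0379 to 0.611 over the alternatives). TDRD7 was at −0.34 ± 0.09 (adjusted p = 0.198 by edgeR, 0.0265 to 0.616 over the alternatives). Over the 40 lens list non-members, every PVR library was above normal replicates 1 and 3 in 9 and below both in 6. Of all genes at 1 CPM, 19.9% were above and 16.1% below. The 7 capsule genes held 4 of the 9 that were above. The 6 that were below were TDRD7, FYCO1, PLAAT3, BNIP3L and CHMP4B of the maturation list and CADM1 of the fibre membrane list. CAPRIN2, also of the maturation list, was among those above. Type IV collagens are made by the vessels and membranes of the retina too, and their source was not tested. With all 6 libraries, edgeR called 0 of 36 lens list non-members, and DESeq2 and limma-voom also called 0. By edgeR, 4 of the 36 had an unadjusted p under 0.05, beside 3963 of all 18697 genes.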

How the data were processed

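RNA of rabbit retina was sequenced in 3 normal and 3 PVR libraries. The authors used HISAT2 for alignment to OryCun2.0 and htseq-count for gene counts, the submitters' processing notes also name fastp, and the authors deposited raw counts and FPKM values. The strand setting and annotation release were not given in the sources used here. Counts divided by deposited FPKM gave the same length per gene in every library (largest relative difference 4.24e-09). A library's total count was its depth. Samples were grouped by their titles.

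The members and gene lists were chosen with earlier results of these data known. Named genes are members in a lens list and lens list genes that are not members. The 20 members with a symbol and the highest FPKM in normal replicate 2 are also named. So are the 3 genes with a symbol on each side of the 20-fold limit. Up to 5 members with a symbol above 10% of normal replicate 2 are named too. The results of 1 member are not reported here. The few others are said to be chosen after their values were seen. Symbols came from the files or, for 12 of 17 members without one, from RefSeq's annotation of mOryCun1.1, which is another build and was used for names and neighbours only.

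Counts were tested in R 4.3.3 with edgeR 4.0.16 (filterByExpr, TMM factors, glmQLFTest, Benjamini-Hochberg over all genes tested), with all 6 libraries and without normal replicate 2. A gene was called below an adjusted p of 0.05 with a change over 1 in log2. The scripts were tested on simulated data. Alternatives used DESeq2 1.42.0, limma 3.58.1, other filters, scalings and pseudocounts, and libraries left out in turn. Folds against libraries at 0 use a floor of 3 counts per library. Limits from counts cover counting error only (95% Poisson), because no molecular identifiers mark PCR copies.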

Additional observations from a re-analysis of the deposited data

How the results depend on the processing

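The number of members was 65 and ranged from 55 to 90 under the other alternatives, but was 43 with a limit of 50-fold and 79 to 123 when normal replicate 3 or 1 was left out, which is a looser rule. All 65 were among those found with the looser rules. Over the members, the median log2 ratio between PVR and normal replicates 1 and 3 came to 1.81 and ranged from 1.60 to 2.06 when single libraries were left out, but was 0.52 on log2(FPKM + 1), a scale that compresses low values. The median level in PVR was 1.74% of normal replicate 2, 7.77% on that scale, and 1.39% to 1.86% when a PVR library was left out (1.39% without PVR replicate 2). With all 6 libraries, 0 members were called, and leaving out single libraries gave 0 to 9, with the 9 calls coming without normal replicate 2. Without normal replicate 2, 9 members were called, and 25 with DESeq2, 14 with no filter on low counts (more genes tested) and 5 with limma-voom. Over all genes with all 6 libraries, edgeR called 129 higher and 59 lower and DESeq2 519 and 212. Without normal replicate 2 these were 46 and 18 against 487 and 144, and the cause was not tested. The deviations of same-numbered libraries correlated at −0.01, 0.07 and 0.04, and not every library correlated best with its own number. With 3 libraries per group, these values cannot decide whether same-numbered libraries were paired. A fit with the replicate block called 0 members with all libraries and 11 without normal replicate 2, where 99 genes were higher and 24 lower. Members at a few counts in PVR are limited by depth.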
